A study of Arabidopsis thaliana with 3 samples.

Results

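The genes described here encode the core, non-catalytic subunits of the Arabidopsis thaliana SWI/SNF chromatin remodelling complexes: the 4 SWI3 genes, SWP73A and SWP73B, BSH, ARP4, ARP7 and LFR. These 10 genes, of 27444 nuclear protein-coding genes in the annotation used, were chosen by name and not by any measured value. Earlier results of these data were, however, known when these genes were chosen. Every peak that came within 500 bp of them was taken from the peak list of each BDH1-FLAG sample, which gave 15 of 16653 peaks in replicate 1 and 14 of 16413 in replicate 2. Of these peaks, 14 in replicate 1 and 13 in replicate 2 also had their summit, the position of strongest signal, inside those windows.

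BDH1 is a BCL-DOMAIN HOMOLOG protein, a family that the series links to the stability of SWI/SNF. Its binding was profiled by ChIP-seq with an anti-FLAG antibody in inflorescences, from plants raised on soil under long days. The 2 BDH1-FLAG samples, labelled bdh1-1 BDH1-FLAG, came from plants with the bdh1-1 mutation and a transgene for the tagged protein, and the remaining sample was wild type without a tag and was not analysed here. The promoter of the transgene, the number of lines, and whether the replicates came from separate plants are not given in the sources used here, and each sample was a pool, 1 g of inflorescences. With 1 group and 2 lists, no test between groups could be made, and all values below are descriptions set beside the same measure over all protein-coding genes.

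SWI/SNF complexes use the energy of ATP to slide or evict nucleosomes and so change which DNA is open to regulators. The ATPase does the work, while the core subunits hold the complex together: SWI3 proteins form a paired scaffold, SWP73 and BSH are the plant counterparts of the animal subunits BAF60 and SNF5, and ARP4 and ARP7 are actin-related proteins. In Arabidopsis, complexes with different ATPases use different SWI3 proteins, SWI3C with BRM and SWI3D with SYD. Loss of core subunits is known to disturb embryo, leaf and flower development.

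All 10 core subunit genes were overlapped by a BDH1-FLAG peak in both lists, each by exactly 1 peak per list. Among all protein-coding genes, 45.4% were overlapped by a peak in both lists. The core genes were between 2067 and 4618 bp long, and longer genes carry peaks more often in these lists, so the share was also taken over the 11738 protein-coding genes in that range of length, where it was 58.0%. With the 500 bp windows the count was again 10 of 10, where the shares were 52.1% of all protein-coding genes and 63.9% of those in the range of length. The summit lay inside the gene in both lists at all 10 genes, against 42.0% of protein-coding genes and 54.4% in the range of length.

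In every core gene the peak sat at a single end. The summit lay from 96 to 417 bp inside that end in replicate 1 and from 120 to 265 bp inside it in replicate 2, and it was the same end in both lists at all 10 genes. Of the 12466 protein-coding genes overlapped by a peak in both lists, 71.2% had their strongest summit up to 500 bp inside the same end in both, and 76.8% had exactly 1 overlapping peak per list. In the range of length of the core genes these shares were 72.4% and 76.1%. Both arrangements were thus also those of most genes with peaks. The annotation used here gives no strand, so whether an end was the 5′ or the 3′ end of the gene is not known. The rest of each gene held no peak: the overlapping peak covered from 6.03% to 27.7% of the gene's length in replicate 1 and from 9.77% to 27.1% in replicate 2. At 7 of the 10 genes (SWI3B, SWI3D, SWP73A, SWP73B, BSH, ARP7 and LFR), no peak of either list came within 500 bp of the opposite end. The same held for 62.4% of the protein-coding genes with a peak in both lists and for 70.1% of those in the range of length, so 7 of 10 was near the background.

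**Figure D1:**
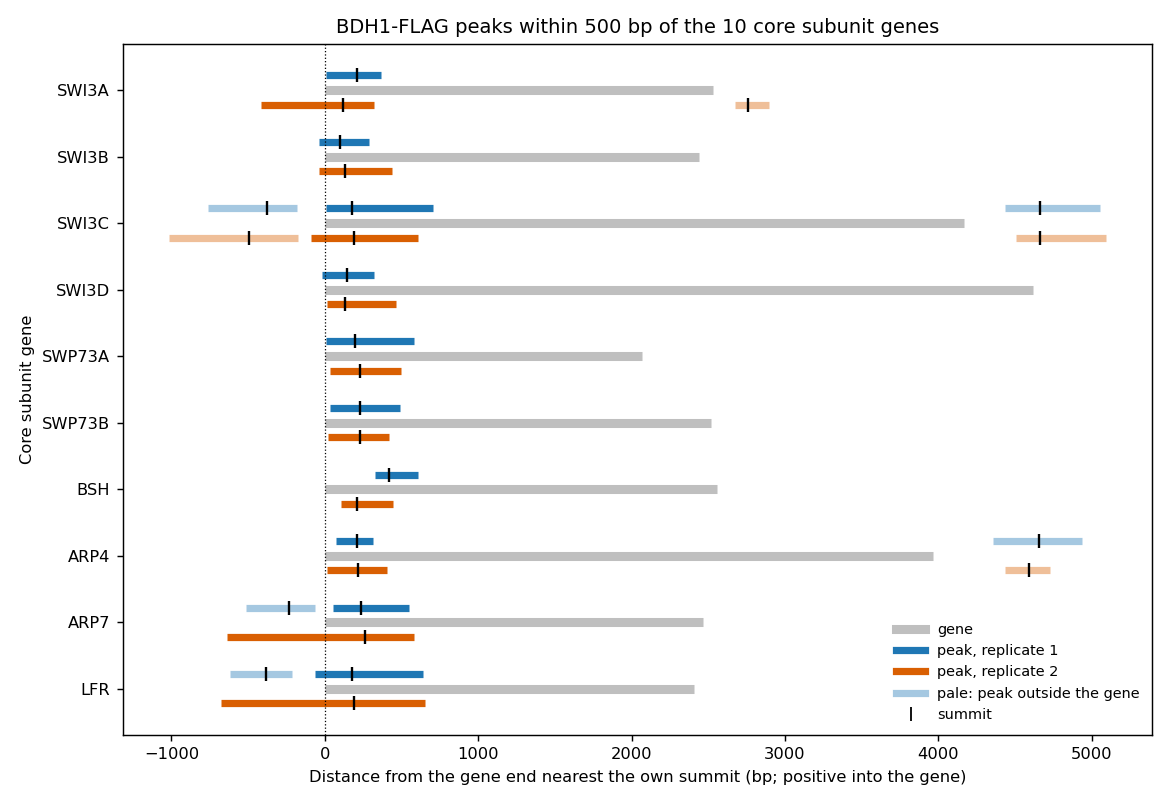
Peaks (coloured bars) and summits (black ticks) within 500 bp of the 10 core subunit genes (grey bars), with the distance in bp from the gene end nearest the overlapping peak's summit on the x axis and 1 row per gene. All 20 summits of overlapping peaks lie 96 to 417 bp inside that end, and pale bars are peaks that lie outside the gene.

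Among the SWI3 genes, SWI3C (AT1G21700), whose protein works with the ATPase BRM, had the strongest peak in both lists. In replicate 1 its peak spanned chromosome 1, 7623461 to 7624157, summit at 7623988, at 3.44-fold enrichment and −log10 q 17.5, which ranked it 641 in the list. In replicate 2 the peak spanned 7623557 to 7624253, summit at 7623974, at 3.96-fold enrichment, −log10 q 23.4 and rank 49. It was in the top 10% of both lists, and its summits, 178 and 192 bp inside the gene, differed by 14 bp. The fold enrichment is the authors' own value for each peak, a linear ratio to a background that is not given in the sources used here. It is used to place a peak within its own list, and medians are averaged over the lists only in the last section.

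SWI3C was also the core gene with most peaks around it. A further peak beyond the same end lay over OGG1 (AT1G21710), a gene for a DNA repair glycosylase whose nearer end is 153 bp away, with a fold enrichment of 2.41 in replicate 1 and 3.02 in replicate 2. Beyond the opposite end, a peak over AT1G21695 had a fold enrichment of 2.39 in replicate 1 and 1.64 in replicate 2, and stopped 268 and 337 bp short of SWI3C. Neither of these peaks touched SWI3C in either list.

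SWI3D (AT4G34430, named CHB3 in the annotation), the partner of SYD, is the longest of the core genes. Its peak lay on chromosome 4 at 16460888 to 16461228 in replicate 1, at 2.88-fold enrichment, −log10 q 13.1 and rank 2417. In replicate 2 it lay at 16460922 to 16461373, at 2.52-fold enrichment, −log10 q 9.43 and rank 4646. The summits were 13 bp apart, 146 and 133 bp inside the gene, and the opposite end was 4296 and 4151 bp from this peak, with no other peak nearer to it.

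SWI3B (AT2G33610), a subunit needed for embryo development, had the summit closest to its gene end in replicate 1, 96 bp inside, and it was 129 bp inside in replicate 2. The peak on chromosome 2 spanned 14228937 to 14229261 in replicate 1, at 2.77-fold enrichment, −log10 q 10.2 and rank 3032. In replicate 2 it spanned 14228932 to 14229413, at 2.40-fold enrichment, −log10 q 6.60 and rank 6054. Both peaks ran past the end of the gene by a short distance, 35 bp in replicate 1 and 40 bp in replicate 2.

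SWI3A (AT2G47620), also needed for embryo development, was the core gene whose rank differed most between the lists. In replicate 1 a narrow peak of 360 bp, on chromosome 2 at 19531948 to 19532307, had 2.00-fold enrichment, −log10 q 3.92 and rank 12295. In replicate 2 the peak was 737 bp wide, at 19531522 to 19532258, at 2.61-fold enrichment, −log10 q 8.60 and rank 3865. It reached 417 bp past the gene end in replicate 2 and overlapped the neighbouring gene AT2G47610, while in replicate 1 it began 9 bp inside SWI3A. The summits were 88 bp apart. A weak peak past the opposite end, over AT2G47630, was in the list of replicate 2, with a fold enrichment of 1.85.

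The SWP73 paralogs, which encode alternative versions of the same subunit, both had a peak that stayed inside the gene in both lists. SWP73A (AT3G01890) had a peak on chromosome 3 at 310015 to 310586 in replicate 1, at 2.83-fold enrichment, −log10 q 11.0 and rank 2659. In replicate 2 it was at 310044 to 310506, at 2.87-fold enrichment, −log10 q 11.1 and rank 1913. SWP73A was thus beyond the upper quartile of both lists, which was 2.62-fold in replicate 1 and 2.58-fold in replicate 2.

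SWP73B (AT5G14170, named CHC1 in the annotation) ranked below its paralog in both lists. Its peak lay on chromosome 5 at 4570501 to 4570960 in replicate 1, at 2.31-fold enrichment, −log10 q 7.76 and rank 7486. In replicate 2 it lay at 4570574 to 4570972, at 2.37-fold enrichment, −log10 q 8.36 and rank 6381. The summits of SWP73B were 4 bp apart, 231 and 227 bp inside the gene, and those of SWP73A 33 bp apart, 195 and 228 bp inside.

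BSH (AT3G17590), the plant SNF5, had the weakest peak of the 10 genes in both lists. On chromosome 3, replicate 1 had a peak from 6019118 to 6019397, at 1.77-fold enrichment, −log10 q 2.39 and rank 15474, so that 7.08% of the peaks in that list were weaker. Replicate 2 had a peak from 6019280 to 6019617, at 2.24-fold enrichment, −log10 q 5.74 and rank 8046, with 50.9% of the list weaker. These peaks shared 118 bp, and their summits were 209 bp apart, the widest separation among the core genes. Across all protein-coding genes with a peak in both lists, the median separation was 71 bp and the upper quartile 153 bp.

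Of the genes for actin-related proteins, ARP7 ranked above ARP4 in both lists. ARP7 (AT3G60830), essential in plants, was, with SWI3C, the other core gene in the top 10% of both lists. Its peak on chromosome 3 spanned 22474037 to 22474535 in replicate 1, at 3.57-fold enrichment, −log10 q 19.8 and rank 451. In replicate 2 a peak of 1221 bp spanned 22473347 to 22474567, at 3.04-fold enrichment, −log10 q 14.8 and rank 1170. The broad peak of replicate 2 corresponded to a pair of peaks in replicate 1, the one in ARP7 and another over PBF1 (AT3G60820), a proteasome subunit gene whose nearer end is 11 bp from ARP7. The peak over PBF1 had a fold enrichment of 2.74. The summit was on the ARP7 side in replicate 2, and at ARP7 the summits of the lists were 26 bp apart.

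ARP4 (AT1G18450), an actin-related protein that is also part of other chromatin complexes, had a weaker peak. On chromosome 1 it spanned 6348123 to 6348361 in replicate 1, at 2.00-fold enrichment, −log10 q 4.17 and rank 12327. In replicate 2 it spanned 6348065 to 6348451, at 2.41-fold enrichment, −log10 q 7.23 and rank 5835. Despite the low rank, the summits were 3 bp apart, the closest pair of summits among the core genes. A stronger peak lay beyond the opposite end, over AT1G18460, with a fold enrichment of 2.27 in replicate 1 and 2.58 in replicate 2. That peak stopped 390 and 473 bp short of ARP4, and its summits were 692 and 627 bp outside the gene.

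LFR (AT3G22990), named for its role in leaf and flower development, was the most evenly ranked of the 10 genes. Its peak on chromosome 3 spanned 8163878 to 8164578 in replicate 1, at 2.83-fold enrichment, −log10 q 11.2 and rank 2664. In replicate 2 a peak of 1331 bp spanned 8163263 to 8164593, at 2.76-fold enrichment, −log10 q 10.2 and rank 2555. As at ARP7, the broad peak of replicate 2 covered a pair of peaks of replicate 1, in LFR and over its neighbour AT3G22980 at a distance of 152 bp. Across the genome, 800 peaks of replicate 2 (4.87%) met more than 1 peak of replicate 1. The summits in LFR were 13 bp apart, 177 and 190 bp inside the gene.

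**Figure D2:**
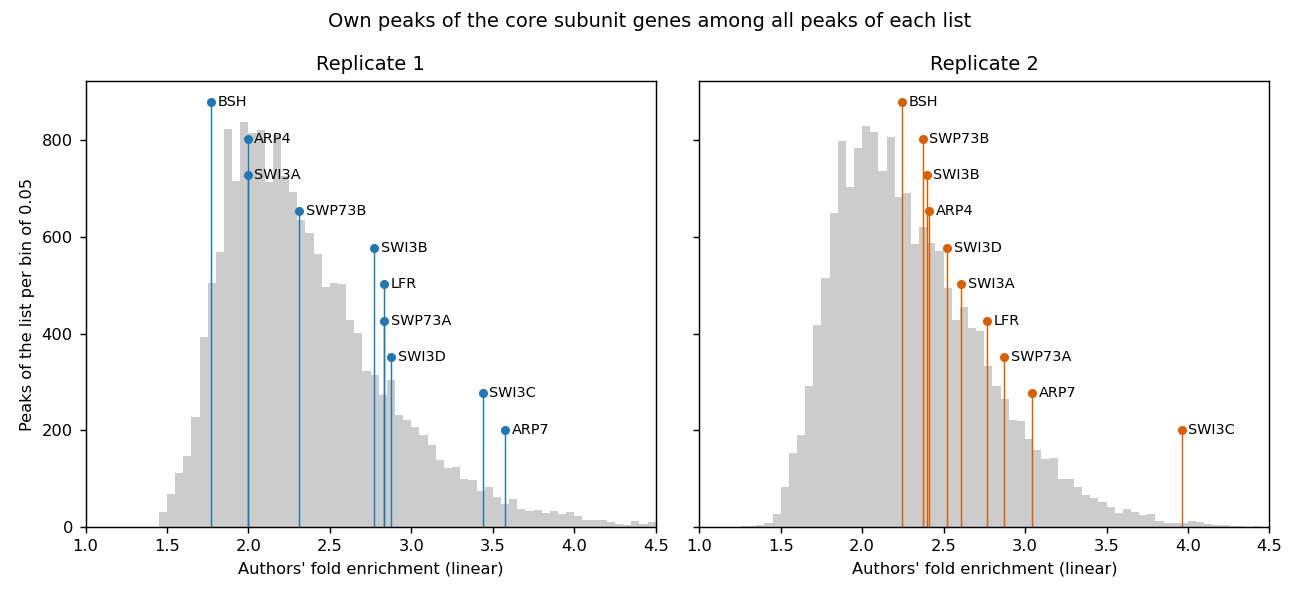
Authors' fold enrichment (linear, x axis, shown from 1 to 4.5) of the overlapping peak of each core gene in replicate 1 and replicate 2, over the number of peaks of the whole list per bin of 0.05 (grey bars, y axis); the height of a gene's marker only separates the names. SWI3C and ARP7 stand highest in both lists and BSH lowest, and SWI3A is at 2.00 in replicate 1 and 2.61 in replicate 2.

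Set side by side, the overlapping peaks of the core genes had a median fold enrichment of 2.80 in replicate 1 and 2.56 in replicate 2. Over all protein-coding genes with such a peak in both lists, the medians were 2.43 and 2.41. The lower quartile of the core genes in replicate 1 was 2.08, against 2.14 over all these genes, so the core genes were not uniformly high in that list. In replicate 1, 7 of the 10 genes were above the median of the list, and in replicate 2 all 10 were. Most protein-coding genes with such peaks in both lists were above it too. Their median peak stood above 63.6% of the list in replicate 1 and 64.0% in replicate 2. Above the list median in both lists were 7 of 10, against 52.4% of the protein-coding genes with such peaks in both. Beyond the upper quartile in both were 4 genes (SWI3C, SWP73A, ARP7 and LFR), against 24.0%, and in the top 10% of both were 2 (SWI3C and ARP7), against 8.21%.

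The order of the core genes by fold enrichment was the same in both lists for 37 of their 45 pairs. SWI3C and ARP7 changed places with each other but with no other gene, so they could not be ranked between themselves. Above the rest they were the leading genes in both lists, and BSH was last in both. The other pairs that changed places each held SWI3A, ARP4 or SWI3D. Spearman's correlation of fold enrichment between the lists was 0.794 over the 10 genes and 0.628 over 12466 protein-coding genes, as a description of lists from 1 group.

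The position of a gene in its list, as the percentage of weaker peaks, moved by a median of 9.95 points between the replicates over the core genes and 13.3 points over all protein-coding genes with a peak in both lists. It moved least for LFR, by 0.4 points. It moved most for SWI3A, BSH and ARP4, by 50.3, 43.9 and 38.5 points, all 3 being weaker in replicate 1. Over all protein-coding genes, 10% moved by more than 39.6 points. These 3 genes, which had the lowest fold enrichment of the core genes in replicate 1, were also those whose peaks had a −log10 q under 5 there.

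**Figure D3:**
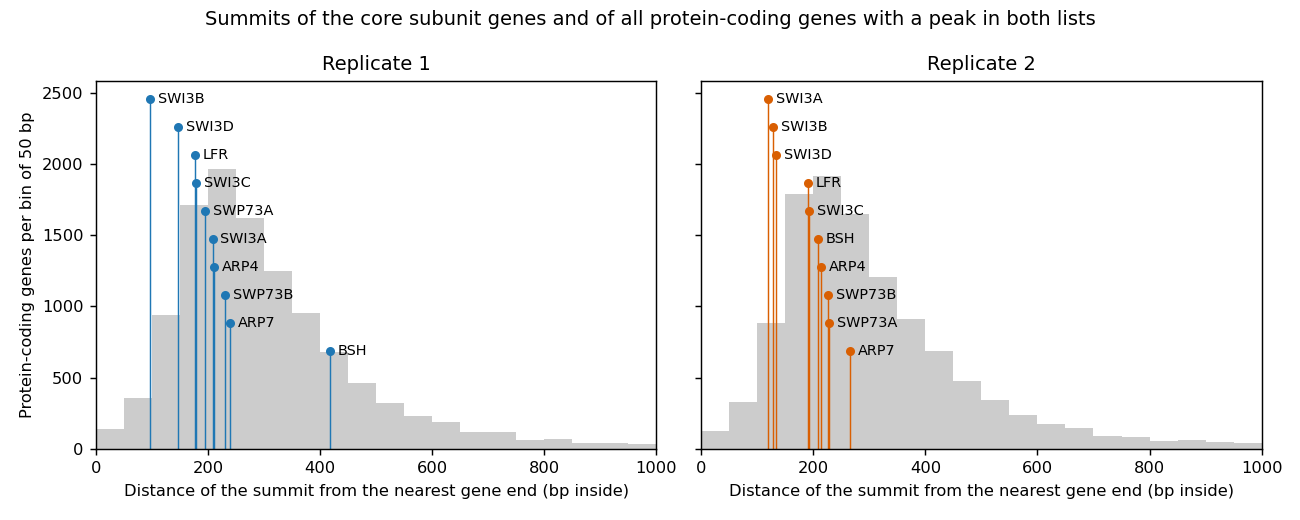
Distance in bp from the summit to the nearest gene end (x axis, shown to 1000 bp) for the overlapping peaks of the 10 core genes, over the number of protein-coding genes with a peak in both lists per bin of 50 bp (grey bars, y axis); marker height only separates the names. The core genes lie between 96 and 265 bp, except BSH at 417 bp in replicate 1. Genes whose summit lies outside the gene are not in the grey bars but count in the medians and quartiles of the text.

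The summits lay close to the gene end. The median distance of the summit inside the core genes was 202 bp in replicate 1 and 200 bp in replicate 2, against 254 bp in both lists over all protein-coding genes with a peak in both. The interquartile range over all these genes was 172 to 367 bp in replicate 1, and 7 of the 10 core genes lay inside it. The exceptions in that list were SWI3B and SWI3D at 96 and 146 bp, closer to the gene end, and BSH at 417 bp, farther from it. Over the genes in the range of length of the core genes, the interquartile range was 182 to 377 bp. SWI3C and LFR, at 178 and 177 bp, were then also closer to the end. In replicate 2, where the range was 172 to 371 bp, SWI3A, SWI3B and SWI3D were closer to the end, at 120, 129 and 133 bp, and the remaining 7 genes were inside it. Over the genes in the range of length, the interquartile range in replicate 2 was 181 to 378 bp, with the same 7 core genes inside. SWI3B and SWI3D were thus close to the end in both lists.

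Between the lists, the summits of the core genes were a median of 20 bp apart, against 71 bp over all protein-coding genes with a peak in both. The quartiles were 13 and 33 bp over the core genes and 31 and 153 bp over all these genes. All core genes had exactly 1 overlapping peak per list, against 76.8% of all these genes. Where a gene had several, the strongest of each list was compared, and these need not be the same peak. No median was taken over genes with 1 peak per list alone. SWI3A and BSH had the widest separations, 88 and 209 bp. The outer edge of the peak was within 100 bp of the gene end at 9 of the 10 core genes in replicate 1, all but BSH, against 48.8% of the protein-coding genes with a peak in both lists and 48.7% in the range of length. In replicate 2 it was within 100 bp at 6 of 10, against 48.2% and 48.5%. There the exceptions were BSH, whose peak began 107 bp inside, and SWI3A, ARP7 and LFR, whose peaks ran 417, 636 and 678 bp past the end into a neighbouring gene. At these 3 genes the peak of replicate 2 could not be assigned to the core gene alone, although its summit lay inside it. At all 10 core genes, a neighbouring gene lay within 500 bp of the end with the summit, at 11 to 446 bp. The share of all protein-coding genes with so near a neighbour was not taken, so this count is not read as particular to the core genes. Whether the peaks belong to the core genes or to these neighbours was not tested.

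Requiring stronger peaks separated the core genes. With a −log10 q of at least 5 in both lists, 7 of 10 genes were still overlapped by a peak, against 30.2% of all protein-coding genes and 38.3% of those in the same range of length. The genes lost were SWI3A, BSH and ARP4. Counting also peaks within 500 bp, ARP4 was retained through the peak over AT1G18460, which gave 8 of 10, against 36.9% of all protein-coding genes and 45.5% in the range of length. With a −log10 q of at least 10 in both lists, SWI3C, SWP73A, ARP7 and LFR remained, 4 of 10, against 9.12% of all protein-coding genes and 11.1% in the range of length. SWI3B and SWI3D passed this level in replicate 1, at 10.2 and 13.1, but not in replicate 2, at 6.60 and 9.43.

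**Figure D4:**
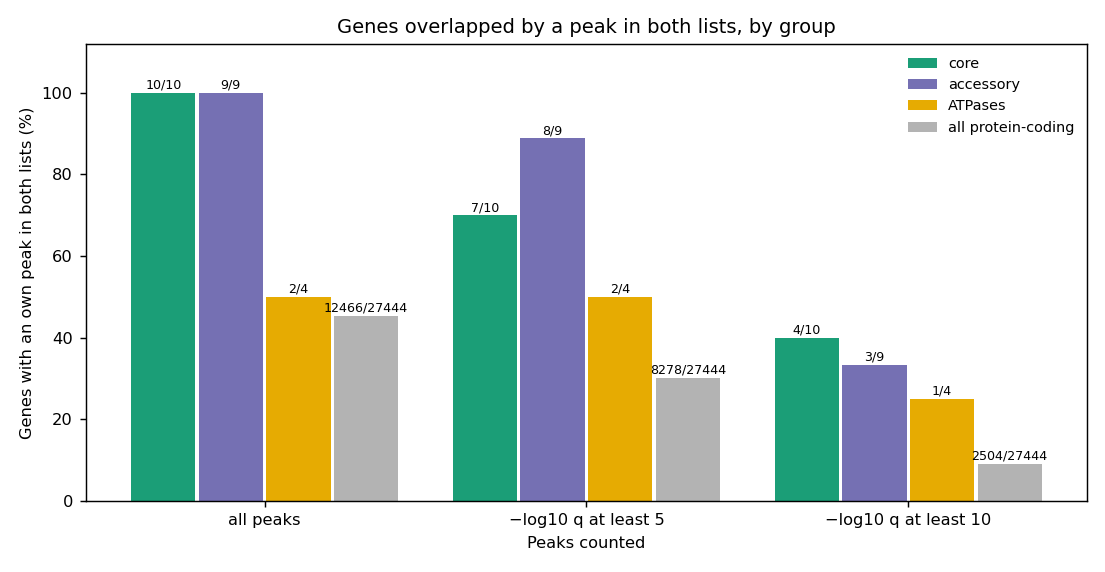
Percentage of genes overlapped by a peak in both lists (y axis) among the core, accessory and ATPase subunit genes and all protein-coding genes, for all peaks and for peaks with a −log10 q of at least 5 or 10 (x axis); the numbers above the bars are genes counted of genes in the group. The core genes go from 10 of 10 to 7 and 4, and all protein-coding genes from 45.4% to 30.2% and 9.12%.

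The other subunits of the complexes were counted by the same rule. Of 13 other subunit genes, 11 were overlapped by a peak in both lists, against 45.4% of all protein-coding genes. All 9 accessory genes were: the bromodomain genes BRD1, BRD2 and BRD13, BRIP1 and BRIP2, the GIF genes GIF1, GIF2 and GIF3, which encode transcriptional coactivators, and BDH2, the paralog of BDH1. Of the 4 ATPase genes, BRM and SYD had a peak in both lists. MINU1 had one in replicate 1 alone, with a fold enrichment of 1.75, and MINU2 in replicate 2 alone, with 2.07. The 11 genes with peaks in both lists were from 1021 to 17067 bp long, and no share was taken in their own range of length. Whether the core genes differed from the ATPase or accessory genes was not tested.

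In strength, the 11 other subunit genes with peaks had a median fold enrichment of 2.56 in replicate 1 and 2.66 in replicate 2, and the ranges overlapped with those of the core genes. BRD2 and BRD13, with 3.68 and 4.36 in replicate 1 and 3.68 and 3.57 in replicate 2, were above ARP7 and SWI3C in replicate 1 and below SWI3C in replicate 2. The peaks of the other subunit genes were wider, with a median of 885 bp in replicate 1 and 745 bp in replicate 2, against 410 and 472 bp in the core genes. Over all protein-coding genes with a peak in both lists the medians were 539 and 559 bp. Of the subunits known to work together, SWI3C stood above BRM in both lists, with 3.44 and 3.96 against 3.20 and 3.07. SWI3D stood above SYD, with 2.88 and 2.52 against 2.16 and 2.29.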

How the data were processed

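Peak lists of the 2 BDH1-FLAG samples were used as deposited, 1 list per sample, not pooled. Per the submitters' processing notes, the tools were Bowtie2 2.5.2, SAMtools, bedtools 2.31.1 and MACS2 2.2.9.1 and the build was TAIR10. The control behind the peaks and the read filters are not given in the sources used here, and read depth is unknown, so no counting error could be given. The deposited columns used were the interval, the summit, the fold enrichment (a linear ratio) and the −log10 of the q-value; the deposited score, a rescaled −log10 q, was not used. The lowest −log10 q was 1.32 in replicate 1 and 1.31 in replicate 2. Libraries were read as 50 bases, single-end, per the labels.

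Gene names and extents came from a RefSeq table of TAIR10.1, which matched all 10 genes and gives no strand; its coordinates are not printed. As the table's assembly name differs from that of the lists, the match was checked: 41.2% and 42.3% of the summits lay within 250 bp of the end of a protein-coding gene, against 17.8% to 23.5% when the gene ends were shifted by 1000 to 10000 bp. Positions are 1-based. Overlap of 1 bp counted. When several peaks overlapped a gene, the one with the highest fold enrichment was taken. Overlap counting was tested on simulated data. Python 3.11.15, pandas 2.3.3 and numpy 2.4.6 were used.

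All core genes and each of the other 13 subunit genes were named, and other genes where they shared or neighboured a peak. The members and lists were chosen with earlier results of these data known. BDH1 itself was left out, as the transgene carries it. A planned search for promoter motifs was not made, as no sequence was used here.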

Additional observations from a re-analysis of the deposited data

How the results depend on the processing

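The count of 10 core genes with a peak in both lists was also obtained with the gene alone, with windows of 250 and 1000 bp, with an overlap of at least 150 bp and from either list alone. Under these settings the share of all protein-coding genes ran from 45.4% to 57.1%. Keeping only peaks with −log10 q of 5 or 10 and more, which leaves fewer peaks, the count was 8 and 4. The shares of all protein-coding genes were then 36.9% and 11.8%. The count by summits was 7 and 4, and no share over all genes was taken for summits at these levels. For the other subunit genes the count of 11 became 10 and 4, against the same 36.9% and 11.8%. It was 12 from either list alone, against 55.6% of all protein-coding genes in replicate 1 and 56.2% in replicate 2. Taking the strongest peak in the 500 bp window in place of the overlapping one, the median fold enrichment of the core genes was 2.70 ± 0.149 (SD, n = 2 lists), from 2.59 to 2.80 by list and from 2.63 to 2.71 under the other settings. The same measure over 14297 protein-coding genes was 2.46. The median summit depth was 189 bp ± 3.18 (SD, n = 2 lists), from 186.5 to 191 bp by list, against 208 bp over the protein-coding genes. It was 201 bp with the gene alone or a 250 bp window, 184 bp when −log10 q had to reach 5, and 141 bp averaged over all peaks of a gene, which brings in peaks of neighbours. The median distance between the summits of the lists was 29.5 bp, against 75 bp over the 14297 protein-coding genes. For the core genes it was 20 bp with the gene alone or when −log10 q had to reach 5 or 10. At ARP4 the strongest peak in the window was that over AT1G18460, so its depth turned from -659.5 bp to 212.5 bp with the gene alone or a 250 bp window, and at SWI3C averaging over all peaks gave -248.5 bp. The windows of 250 and 1000 bp for depth and fold enrichment, and the −log10 q of 10 for the distance, were chosen after seeing the data. No paired analysis was possible because the lists come from 1 group. Without values of the wild-type sample, signal that does not depend on the tag was not tested.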
